A study of Arabidopsis thaliana with 9 samples.

Results

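Aliphatic glucosinolate side-chain oxidation is represented here by 6 genes, chosen by their locus identifiers: the flavin monooxygenases FMO GS-OX1 (AT1G65860), FMO GS-OX2 (AT1G62540), FMO GS-OX3 (AT1G62560), FMO GS-OX4 (AT1G62570) and FMO GS-OX5 (AT1G12140), and the dioxygenase AOP2 (AT4G03060). All 6 were found among the 33323 genes of the expression tables, and all 6 had enough reads to be tested. RNA-seq was done on whole Arabidopsis thaliana rosettes, without roots, of 3 genotypes with 3 libraries each. The jazD plants carry mutations in JAZ1, JAZ2, JAZ3, JAZ4, JAZ5, JAZ6, JAZ7, JAZ9, JAZ10 and JAZ13, and the jazQ plants in JAZ1, JAZ3, JAZ4, JAZ9 and JAZ10. These gene lists are background knowledge of the lines, since the labels give the line names alone. The wild type was accession Col-0, which the labels also give for jazQ, while for jazD the same name stands with an unexplained asterisk. All plants were 23 days old, each library pooled about 20 rosettes, and mutants and wild type grew on shared trays with 16 h of light at 20 °C.

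Glucosinolates are sulfur-rich defence compounds of the cabbage order that release toxic products when damaged tissue brings them together with myrosinase enzymes. The aliphatic ones are built from methionine, whose side chain is lengthened, converted to the glucosinolate core and then decorated. The FMO GS-OX enzymes add oxygen to the side-chain sulfur and so turn methylthioalkyl into methylsulfinylalkyl glucosinolates, and FMO GS-OX5 is known to prefer long side chains. AOP2 converts the methylsulfinylalkyl products into alkenyl glucosinolates. The Col-0 accession is known to carry a defective AOP2 and to store methylsulfinylalkyl compounds instead. JAZ proteins hold back MYC transcription factors, which act together with MYB factors on glucosinolate genes, until jasmonate triggers their breakdown.

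In the RefSeq annotation of the assembly TAIR10.1, FMO GS-OX2 (chromosome 1, 23151634 to 23155728), FMO GS-OX3 (23159734 to 23162881) and FMO GS-OX4 (23168767 to 23172175) follow each other on the plus strand. The gaps between them are 4005 and 5885 bases, and the first holds the pseudogene AT1G62550. FMO GS-OX1 (24498954 to 24502776, minus strand) and FMO GS-OX5 (4121285 to 4124595, plus strand) lie elsewhere on chromosome 1. These 5 genes are protein-coding, whereas AOP2 (chromosome 4, 1351688 to 1354096, minus strand) is annotated as a transcribed pseudogene. AOP2 lies between AOP3, 5251 bases away, and AOP1, 4170 bases away. The coding sequences of FMO GS-OX1, FMO GS-OX2 and FMO GS-OX3 were 83.0 to 85.4% identical to each other over their aligned bases, and FMO GS-OX5 was 73.1 to 75.1% identical to the other FMO GS-OX genes. Few long stretches were shared exactly all the same. Of the 50-base stretches in annotated exons, 4 of 1391 in FMO GS-OX1 and 4 of 1692 in FMO GS-OX2 occurred in the other of this pair, 5 of 1948 in AOP2 occurred in AT4G03038, and 0 in FMO GS-OX3, FMO GS-OX4 and FMO GS-OX5 occurred elsewhere in the nuclear chromosomes. The read length is not given in the sources used here, and the search did not cover shorter matches or matches with mismatches. How many reads were shared therefore cannot be read from it. Each member had expected counts that were not whole numbers in at least some libraries. In Col-0 replicate 1, FMO GS-OX2 had 42.87 and FMO GS-OX5 had 736.68.

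The 300 bases before the annotated start are printed for 4 members, read 5′ to 3′ on the gene's strand from TAIR10.1 (RefSeq). FMO GS-OX2 and FMO GS-OX3 are shown because these tandem neighbours moved in opposite directions in jazD. AOP2 is shown because FMO GS-OX3 was the gene with the profile nearest to it, and FMO GS-OX1 because its window held the most motif matches. Capitals mark matches to 4 motifs searched on both strands: CACGTG (G-box, bound by MYC factors), CACATG (a G-box variant), AACGTG (T/G-box) and GCCGCC (GCC-box, bound by ERF factors).
FMO GS-OX2, chr1:23151334-23151633, plus strand: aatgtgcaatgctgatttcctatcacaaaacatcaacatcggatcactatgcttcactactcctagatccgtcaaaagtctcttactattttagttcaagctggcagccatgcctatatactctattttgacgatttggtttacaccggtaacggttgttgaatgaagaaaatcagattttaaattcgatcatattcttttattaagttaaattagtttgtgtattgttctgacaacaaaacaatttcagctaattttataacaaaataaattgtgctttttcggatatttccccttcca
FMO GS-OX3, chr1:23159434-23159733, plus strand: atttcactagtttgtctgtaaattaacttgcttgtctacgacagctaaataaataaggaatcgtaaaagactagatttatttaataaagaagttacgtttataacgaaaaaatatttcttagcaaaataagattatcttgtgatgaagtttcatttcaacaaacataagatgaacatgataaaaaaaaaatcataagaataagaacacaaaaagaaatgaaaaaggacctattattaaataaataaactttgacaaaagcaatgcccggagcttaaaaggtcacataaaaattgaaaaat
AOP2, chr4:1354097-1354396, minus strand: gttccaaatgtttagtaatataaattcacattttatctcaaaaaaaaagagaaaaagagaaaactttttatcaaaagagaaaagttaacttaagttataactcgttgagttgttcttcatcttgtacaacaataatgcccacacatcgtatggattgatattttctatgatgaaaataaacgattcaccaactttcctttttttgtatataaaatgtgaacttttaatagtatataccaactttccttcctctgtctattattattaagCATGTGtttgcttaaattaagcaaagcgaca
FMO GS-OX1, chr1:24502777-24503076, minus strand: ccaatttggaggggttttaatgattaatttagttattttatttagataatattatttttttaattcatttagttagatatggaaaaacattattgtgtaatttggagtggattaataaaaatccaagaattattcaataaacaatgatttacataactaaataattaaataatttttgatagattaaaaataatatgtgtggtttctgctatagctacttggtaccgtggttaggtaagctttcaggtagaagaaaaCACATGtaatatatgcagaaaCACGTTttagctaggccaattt
The windows of FMO GS-OX2, FMO GS-OX3 and FMO GS-OX4 held none of the 4 motifs. That of AOP2 held CACATG once, written CATGTG on the strand shown, 31 bases before the start. The FMO GS-OX1 window held CACATG 43 bases and AACGTG, written CACGTT, 22 bases before the start, and the FMO GS-OX5 window held AACGTG 116 bases before it. No matches overlapped. Of the same windows of 27443 protein-coding genes, 7.09% held CACGTG, 13.1% CACATG, 8.71% AACGTG and 2.26% GCCGCC. A match describes letters and is not a binding site.

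Total counts per library ran from 15370271 to 20730459, and 22257 to 22619 genes had a count in each. In the mutated genes, JAZ1 had 2.05 to 2.69 CPM (counts scaled to library size by TMM) in jazD and 2.54 to 2.79 CPM in jazQ, against 23.8 to 26.5 CPM in Col-0. JAZ2 had 2.63 to 3.46 CPM in jazD, against 29.7 to 47.3 CPM in jazQ and 21.1 to 26.9 CPM in Col-0. Of the 10 genes mutated in jazD, 5 (JAZ1, JAZ2, JAZ4, JAZ6 and JAZ7) lay below the Col-0 range in jazD and the other 5 lay above it. Over all genes tested, 21.2% lay below and 21.4% above. JAZ4 and JAZ7 were low in Col-0 already, at 0.460 to 0.734 and 0.581 to 1.83 CPM. In jazQ, JAZ4 had 0.0590 to 0.466 CPM and overlapped Col-0. JAZ13 had 19.0 to 20.4 CPM in jazD, against 0.345 to 0.528 CPM in Col-0, and JAZ10 had 35.1 to 47.7 CPM in jazD and 11.7 to 26.5 CPM in jazQ, against 3.06 to 3.40 CPM in Col-0. JAZ3 had 27.1 to 32.4 CPM in jazD and 50.2 to 54.5 CPM in jazQ, against 10.7 to 14.8 CPM in Col-0. JAZ9 had 117 to 159 CPM in jazD and 59.6 to 99.3 CPM in jazQ, against 53.9 to 77.2 CPM in Col-0, and JAZ5 had 3.56 to 6.32 CPM in jazD, against 2.38 to 3.01 CPM in Col-0. Gene totals do not show whether such transcripts are intact, so these 5 genes do not check the labels. Leaf markers fitted the tissue label: RBCS1A, LHCB1.3, RCA and LHCB4.1 summed to at least 43451 TPM (a length-corrected level) in every library. The 7 root markers summed to at most 1.65 TPM, the 3 flower markers to at most 0.37 TPM and the 3 seed markers to at most 0.29 TPM. Fold changes below are log2 values ± standard error from edgeR's quasi-likelihood test on counts of all 9 libraries, with p adjusted over all genes tested by Benjamini-Hochberg and a call at an adjusted p under 0.05. Levels are TPM ± SD with n = 3 libraries per genotype.

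In jazD rosettes, FMO GS-OX2 transcript was 4.41-fold higher than in Col-0, while FMO GS-OX3, FMO GS-OX5 and AOP2 were lower, the AOP2 call being lost in 3 of 18 alternative settings. In jazQ rosettes, FMO GS-OX2 was 2.09-fold higher than in Col-0. FMO GS-OX3 and AOP2 also passed the test as higher in jazQ, but each of these calls was lost in 10 of the 18 alternatives. The 2 mutants thus shared a rise of FMO GS-OX2 and had FMO GS-OX3 and AOP2 on opposite sides of the wild type. FMO GS-OX4 was not called in any of the 3 comparisons in the fit reported. Among the 18 alternatives it passed in 6 for jazD against jazQ and in 1 for jazD against Col-0. In pooled rosettes, fewer cells of a type and less RNA per cell cannot be told apart.

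**Figure D1:**
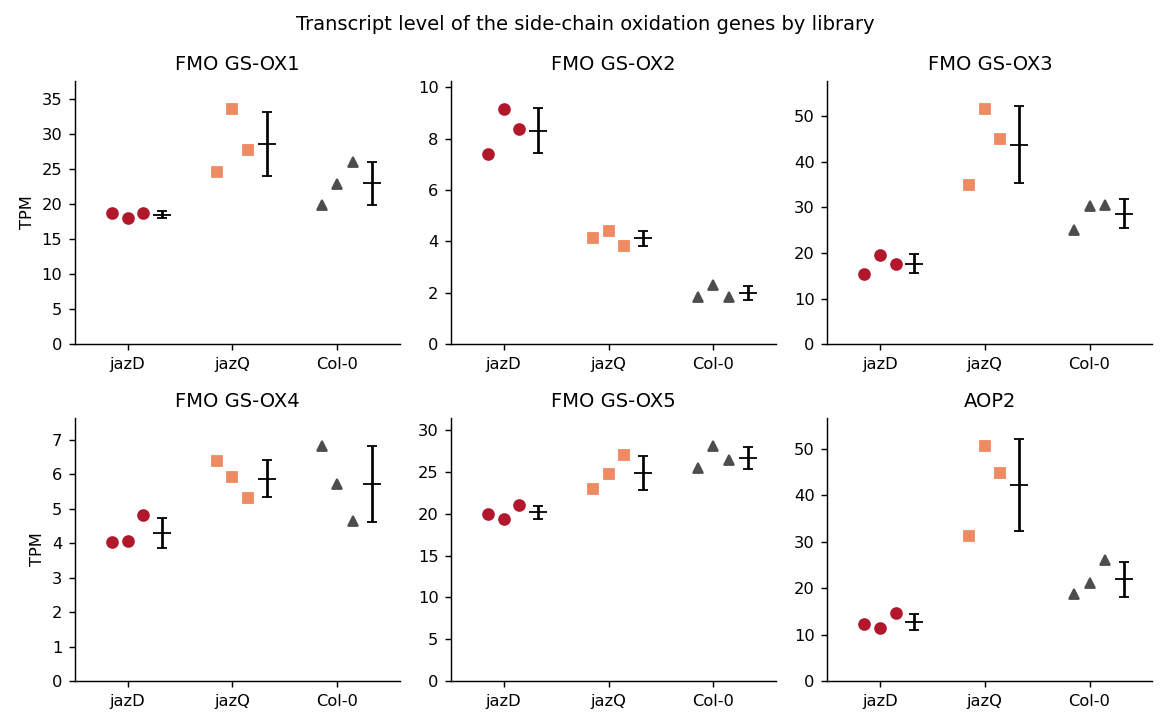
TPM of each of the 6 genes (y axis, from 0, scaled per panel) in the 3 libraries of jazD (circles), jazQ (squares) and Col-0 (triangles), with the mean and SD of each genotype beside the points. FMO GS-OX2 lay between 7.39 and 9.14 TPM in jazD, between 3.83 and 4.41 TPM in jazQ and between 1.82 and 2.29 TPM in Col-0, while FMO GS-OX3 and AOP2 were lowest in jazD and highest in jazQ.

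FMO GS-OX2, an S-oxygenase with activity on short and long side chains, had 7.39, 9.14 and 8.36 TPM in jazD, 4.13, 4.41 and 3.83 TPM in jazQ, and 1.84, 2.29 and 1.82 TPM in Col-0. The 3 genotypes formed separate ranges, with jazD highest and Col-0 lowest. The change was 2.14 ± 0.13 for jazD against Col-0 (adjusted p = 9.55e-08, edgeR), 1.06 ± 0.14 for jazQ against Col-0 (adjusted p = 0.00179) and 1.08 ± 0.12 for jazD against jazQ (adjusted p = 2.25e-05). All 3 calls held under all 18 alternative settings tried. The counts behind the Col-0 values were small, between 42.9 and 50.2 expected counts per library.

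FMO GS-OX3, the next gene along the chromosome and an S-oxygenase of the same group, had 15.5, 19.7 and 17.7 TPM in jazD, 34.9, 51.6 and 45.0 TPM in jazQ, and 25.1, 30.35 and 30.6 TPM in Col-0. Every jazD library was below every Col-0 library and every jazQ library above. The gene fell in jazD against Col-0 (-0.63 ± 0.13, adjusted p = 0.00554, edgeR) and against jazQ (-1.25 ± 0.13, adjusted p = 4.57e-05), calls that held under all 18 alternatives. It rose in jazQ against Col-0 (0.62 ± 0.13, adjusted p = 0.0454), with a call close to the threshold. That call was lost in 10 of the 18 alternatives, including the fit without Col-0 replicate 1, 2 or 3 (0.54, 0.67 and 0.66), without jazQ replicate 2 or 3 (0.52 and 0.59) and without jazD replicate 3 (0.62). Within each library, the ratio of FMO GS-OX2 to FMO GS-OX3 TPM was 0.464 to 0.476 in jazD, 0.0851 to 0.118 in jazQ and 0.0596 to 0.0755 in Col-0. This ratio does not depend on scaling between libraries, and its 3 ranges did not overlap. The separation of jazD from the others follows from the gene ranges given above and adds no support to them.

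AOP2, whose working form is a dioxygenase acting on the product of the S-oxygenases, had 12.2, 11.4 and 14.6 TPM in jazD, 31.3, 50.6 and 44.8 TPM in jazQ, and 18.7, 21 and 26.1 TPM in Col-0. The reference annotates AOP2 as a transcribed pseudogene, so these values describe transcript and not enzyme. Its ranges did not overlap either, and the jazQ libraries spread widest. Among the 6 genes AOP2 had the largest difference between the mutants, at -1.67 ± 0.18 for jazD against jazQ (adjusted p = 1.15e-04, edgeR, held in all 18 alternatives). It fell in jazD against Col-0 (-0.71 ± 0.18, adjusted p = 0.0182), a call lost without Col-0 replicate 3 (-0.58), jazD replicate 1 (-0.69) or jazD replicate 2 (-0.65). It rose in jazQ against Col-0 (0.95 ± 0.17, adjusted p = 0.0299), a call lost in 10 of 18 alternatives. Those included the fits without Col-0 replicate 1 or 2 (0.86 and 0.93), jazQ replicate 2 or 3 (0.84 and 0.90) and jazD replicate 1 or 2 (0.95 in both).

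FMO GS-OX5, the S-oxygenase for long side chains, had 20.0, 19.4 and 21.05 TPM in jazD, 23.0, 24.8 and 27.0 TPM in jazQ, and 25.5, 28.1 and 26.4 TPM in Col-0. The jazD libraries lay below all others, while jazQ and Col-0 overlapped. The gene fell by a small amount in jazD against Col-0 (-0.33 ± 0.07, adjusted p = 0.00528, edgeR, held in all 18 alternatives). Its fall in jazD against jazQ (-0.25 ± 0.07, adjusted p = 0.0234) was lost without jazQ replicate 3 (-0.17), jazD replicate 1 (-0.25) or jazD replicate 2 (-0.23). The jazQ value against Col-0 was -0.08 ± 0.07 and not called (adjusted p = 0.711).

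FMO GS-OX1, the first of the group by name and a broad S-oxygenase, had 18.8, 18.0 and 18.8 TPM in jazD, 24.6, 33.6 and 27.7 TPM in jazQ, and 19.9, 22.95 and 26.05 TPM in Col-0. The jazD values lay close together and below the Col-0 range, and the jazQ and Col-0 ranges overlapped. It fell in jazD against jazQ (-0.56 ± 0.10, adjusted p = 0.00114, edgeR, held in all 18 alternatives). Against Col-0 the values were -0.24 ± 0.10 in jazD (adjusted p = 0.112) and 0.33 ± 0.10 in jazQ (adjusted p = 0.181), neither of them called. The jazD value passed without Col-0 replicate 1 (-0.33).

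FMO GS-OX4, the last gene of the tandem group, had 4.03, 4.07 and 4.81 TPM in jazD, 6.38, 5.92 and 5.31 TPM in jazQ, and 6.83, 5.71 and 4.64 TPM in Col-0. The jazD and Col-0 ranges overlapped, and the jazD range lay below that of jazQ. The values were -0.34 ± 0.15 for jazD against Col-0 (adjusted p = 0.118, edgeR), 0.05 ± 0.14 for jazQ against Col-0 (adjusted p = 0.935) and -0.38 ± 0.15 for jazD against jazQ (adjusted p = 0.0702). The first of these passed without Col-0 replicate 3 (-0.48), and the last passed in 6 of 18 alternatives, among them the fits without Col-0 replicate 1 or 3 (both -0.38).

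**Figure D2:**
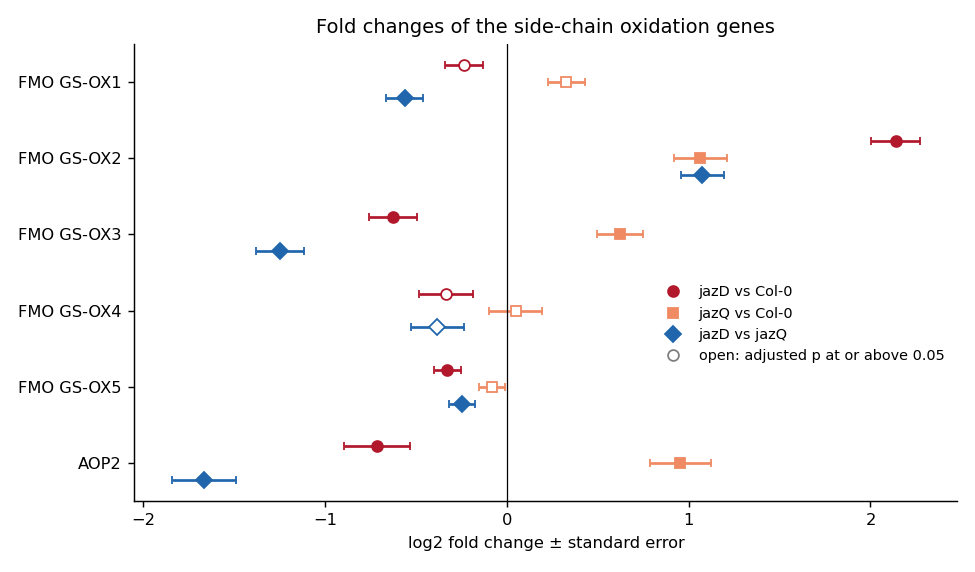
Log2 fold change with its standard error (x axis) for each of the 6 genes (rows) in jazD against Col-0 (circles), jazQ against Col-0 (squares) and jazD against jazQ (diamonds), with open symbols where the adjusted p was 0.05 or more. FMO GS-OX2 lies right of 0 in all 3 comparisons, and FMO GS-OX3 and AOP2 lie left of 0 in jazD against Col-0 and right of it in jazQ against Col-0.

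Counted together, 1 of the 6 genes rose and 3 fell in jazD against Col-0, with a median change of -0.33. Over all 19405 genes tested the median was -0.003, 13.3% were called higher and 12.5% lower, 25.8% in all. The CPM ranges of jazD and Col-0 did not overlap for 5 of the 6, with 1 above and 4 below, and for 42.6% of all genes, with 21.4% above and 21.2% below. The split of 2580 higher and 2426 lower genes became 1980 and 3421 on log2(TPM + 1), while the directions of the 6 genes did not turn. In jazQ against Col-0, 3 of 6 rose and 0 fell, with a median of 0.47, where 0.861% of all genes were called higher, 0.412% lower, 1.27% in all, and the median was -0.007. The CPM ranges did not overlap for 3 of the 6, all above Col-0, and for 17.3% of all genes, with 9.00% above and 8.31% below. In jazD against jazQ, 1 rose and 4 fell, with a median of -0.47, where 15.0% of all genes were called higher and 13.8% lower, 28.8% in all, and the median was -0.005. The CPM ranges of the mutants did not overlap for 6 of 6, with 1 above and 5 below, and for 44.2% of all genes, with 22.3% above and 21.9% below. The split over all genes there was 2918 higher and 2678 lower, and 2333 and 3397 on log2(TPM + 1). The first and second of these comparisons share the Col-0 libraries, and the third shares a mutant with each.

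The order of the levels differed between the genotypes. In jazD, FMO GS-OX5 led with 20.2 ± 0.814 TPM, followed by FMO GS-OX1 with 18.5 ± 0.465, FMO GS-OX3 with 17.6 ± 2.09, AOP2 with 12.7 ± 1.66, FMO GS-OX2 with 8.30 ± 0.877 and FMO GS-OX4 with 4.30 ± 0.439. Of these neighbours, only FMO GS-OX1 and FMO GS-OX3 had overlapping ranges over the jazD libraries. In jazQ, FMO GS-OX3 led with 43.8 ± 8.40 TPM before AOP2 with 42.2 ± 9.93, FMO GS-OX1 with 28.6 ± 4.56 and FMO GS-OX5 with 24.9 ± 2.04, each overlapping the next. FMO GS-OX4 with 5.87 ± 0.537 TPM and FMO GS-OX2 with 4.12 ± 0.290 TPM were lowest in jazQ, with separate ranges. In Col-0, FMO GS-OX3 with 28.7 ± 3.08 TPM, FMO GS-OX5 with 26.7 ± 1.34, FMO GS-OX1 with 23.0 ± 3.07 and AOP2 with 21.9 ± 3.76 each overlapped the next. FMO GS-OX4 with 5.73 ± 1.10 TPM and FMO GS-OX2 with 1.98 ± 0.266 TPM followed in Col-0, again with separate ranges. FMO GS-OX2 was thus the lowest of the 6 in jazQ and Col-0 and above FMO GS-OX4 in jazD.

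The 5 FMO GS-OX genes summed to 65.7 to 70.7 TPM in jazD, 92.95 to 120.3 TPM in jazQ and 79.2 to 89.5 TPM in Col-0, and these ranges did not overlap. For single genes, CPM ranges did not overlap in 42.6% (jazD and Col-0), 17.3% (jazQ and Col-0) and 44.2% (jazD and jazQ). On log2(TPM + 1), 1980 genes were higher and 3421 lower in jazD against Col-0, with a median of -0.067. Within the summed TPM of the 5 genes, FMO GS-OX2 held 12.0 ± 0.897% in jazD, 3.88 ± 0.497% in jazQ and 2.31 ± 0.264% in Col-0. FMO GS-OX3 held 25.5 ± 2.25% in jazD, 40.6 ± 2.75% in jazQ and 33.3 ± 1.34% in Col-0. FMO GS-OX5 had its lowest share in jazQ, with 23.4 ± 2.39%, against 29.3 ± 1.47% in jazD and 31.1 ± 1.37% in Col-0. The share of FMO GS-OX1 differed by less than its spread, at 26.9 ± 1.53% in jazD, 26.6 ± 1.25% in jazQ and 26.6 ± 2.16% in Col-0. That of FMO GS-OX4 was 6.24 ± 0.517% in jazD, 5.55 ± 1.13% in jazQ and 6.73 ± 1.75% in Col-0.

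**Figure D3:**
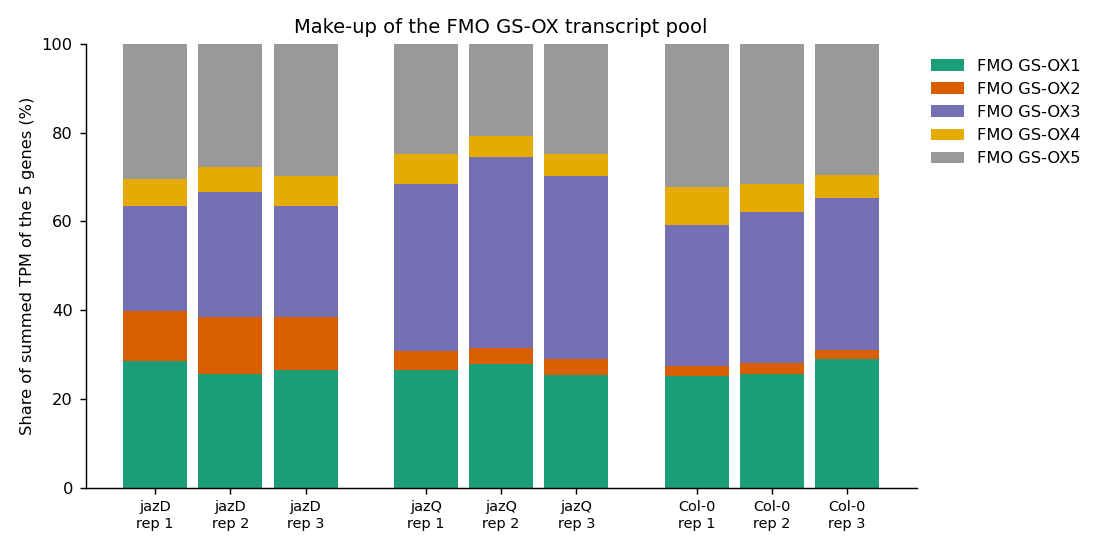
Share of each FMO GS-OX gene in the summed TPM of the 5 genes (y axis, percent), as stacked bars for each library of jazD, jazQ and Col-0. The FMO GS-OX2 segment is 11.2 to 13.0% in jazD libraries, 3.52 to 4.44% in jazQ and 2.03 to 2.56% in Col-0, and the FMO GS-OX3 segment is widest in jazQ.

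The steps before side-chain oxidation moved in the mutants as follows, by lists of known pathway genes. In jazQ against Col-0, 8 of 9 chain-elongation genes rose and 0 fell (median 0.63), and 8 of 11 core-structure genes rose and 0 fell (median 0.49), where 0.861% of all genes were called higher, 0.412% lower and the median was -0.007. MAM1, which condenses the chain-lengthening unit, rose by 0.86 ± 0.06 (adjusted p = 1.23e-05, edgeR), with 312 ± 4.41 TPM in jazQ and 174 ± 6.92 TPM in Col-0. CYP79F1, which turns lengthened methionine into an aldoxime, rose by 0.73 ± 0.07 (adjusted p = 1.28e-04), with 185 ± 23.1 TPM in jazQ and 112 ± 5.82 TPM in Col-0. MAM3, named here after its values were seen, was the chain-elongation gene not called (-0.02 ± 0.12). The chain-elongation count was 6 to 8 across the alternatives. The core-structure count was 5 on TPM with either pseudocount, 4 without Col-0 replicate 1, and 5 without Col-0 replicate 2 or jazQ replicate 2 or 3.

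In jazD against Col-0, the same lists had 3 of 9 genes higher and 0 lower (median 0.05) and 3 of 11 higher and 2 lower (median 0.11), where 13.3% of all genes were called higher, 12.5% lower and the median was -0.003. With 25.8% of all genes called, the 3 of 9 chain-elongation genes are near the background. MAM1, BCAT4 (the aminotransferase at the entry of chain elongation) and IPMDH1 (a dehydrogenase of the elongation cycle) rose by 0.31 ± 0.06, 0.30 ± 0.07 and 0.29 ± 0.07. In the core, GGP1, a peptidase that trims the glutathione conjugate in aliphatic and indole glucosinolate synthesis, rose by 1.09 ± 0.08 (adjusted p = 2.70e-07, edgeR). UGT74B1, a glucosyltransferase, and GSTU20, a glutathione transferase, rose by 0.33 ± 0.06 and 0.30 ± 0.07. The core genes that fell in jazD were CYP79F1 (-0.24 ± 0.07) and CYP83A1 (-0.24 ± 0.06), which act in turn on the methionine-derived chain, the second of them chosen after its values were seen. The core count of 5 became 3 without Col-0 replicate 3 or jazD replicate 2. In jazD against jazQ, 8 of 9 chain-elongation genes and 8 of 11 core genes fell, and 1 core gene, GGP1, rose, where 13.8% of all genes were called lower and 15.0% higher. The isomerase subunit IPMI SSU2 fell by 0.65 on the log2 scale with a standard error of 0.06, with 90.2 ± 2.97 TPM in jazD and 148 ± 0.731 TPM in jazQ. CYP79F1 had a difference of -0.97 ± 0.07 in the same comparison (adjusted p = 4.21e-07).

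**Figure D4:**
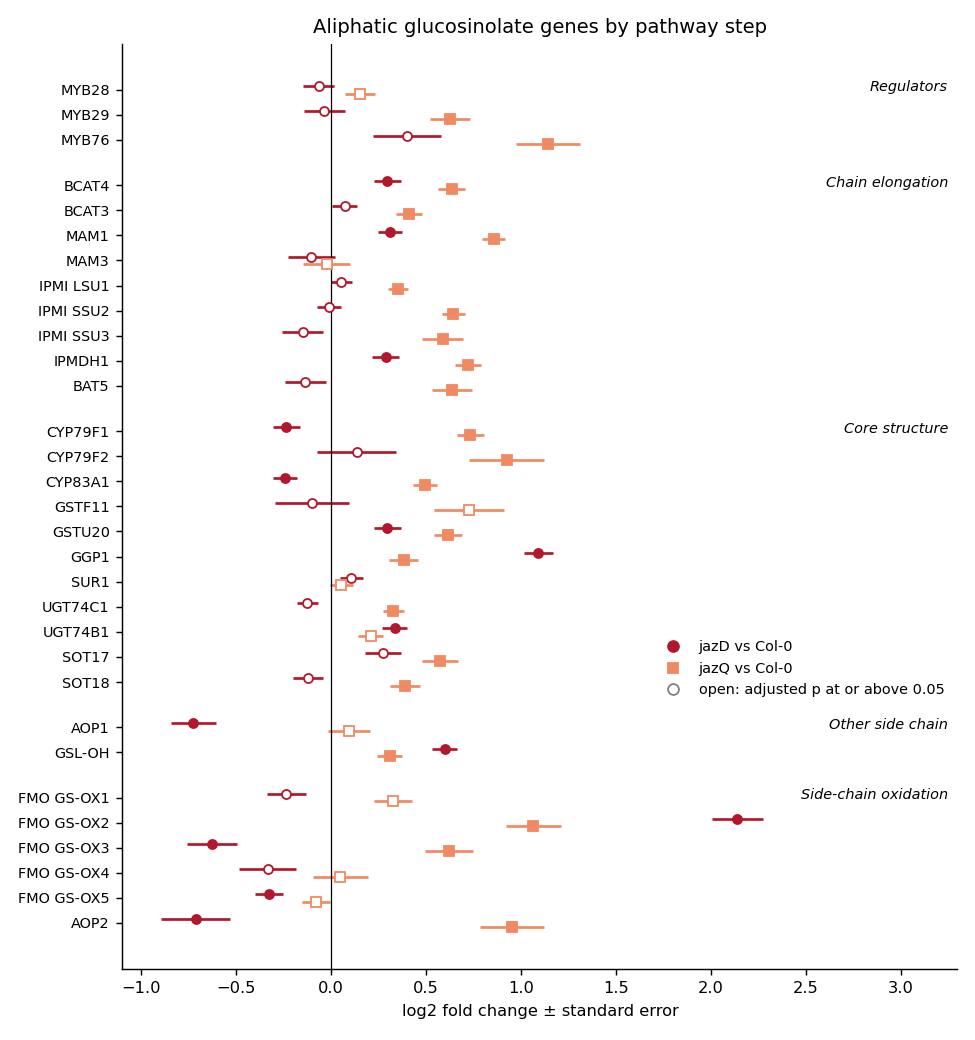
Log2 fold change with its standard error (x axis) in jazD against Col-0 (circles) and jazQ against Col-0 (squares) for the tested aliphatic glucosinolate genes (rows), grouped by step, with open symbols where the adjusted p was 0.05 or more. Most chain-elongation and core genes lie farther right in jazQ than in jazD, and FMO GS-OX2 lies farthest to the right, at 2.14 in jazD.

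The MYB factors that activate aliphatic glucosinolate genes differed among themselves. MYB29 had 16.6, 18.2 and 18.45 TPM in jazD, 23.65, 34.5 and 29.9 TPM in jazQ, and 17.5, 18.9 and 21.03 TPM in Col-0. Its jazQ range lay above the others, and it rose in jazQ against Col-0 (0.63 ± 0.11, adjusted p = 0.00888, edgeR) and fell in jazD against jazQ (-0.66 ± 0.11, adjusted p = 4.72e-04). MYB76 had 2.92, 2.65 and 3.04 TPM in jazD, 4.75, 5.70 and 4.66 TPM in jazQ, and 2.16, 2.06 and 2.63 TPM in Col-0. It rose in jazQ against Col-0 (1.14 ± 0.17, adjusted p = 0.0031) and fell in jazD against jazQ (-0.74 ± 0.16, adjusted p = 0.00377). In jazD against Col-0 neither was called, with -0.04 ± 0.11 for MYB29 and 0.40 ± 0.18 for MYB76. MYB28 was not called in any comparison, with -0.07 ± 0.08 in jazD against Col-0, 0.15 ± 0.08 in jazQ against Col-0 and -0.22 ± 0.08 in jazD against jazQ.

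Of 5 other genes for side chains, 2 could be tested. AOP1, the dioxygenase gene beside AOP2, had 5.04, 4.54 and 4.82 TPM in jazD, 8.49, 10.0 and 8.13 TPM in jazQ, and 8.22, 8.90 and 8.06 TPM in Col-0. The jazD libraries were the lowest, and the jazQ and Col-0 ranges overlapped. AOP1 fell in jazD against Col-0 (-0.73 ± 0.12, adjusted p = 5.51e-04, edgeR) and was not called in jazQ (0.09 ± 0.11). GSL-OH, a dioxygenase that hydroxylates the alkenyl product of AOP2, had 189, 201 and 205 TPM in jazD, 150, 190 and 169 TPM in jazQ, and 136, 139 and 138 TPM in Col-0. It rose in jazD against Col-0 (0.60 ± 0.07, adjusted p = 1.93e-05) and in jazQ against Col-0 (0.31 ± 0.07, adjusted p = 0.0388). The jazQ call of GSL-OH lay close to the threshold, and neither AOP1 nor GSL-OH was put through the alternative settings. AOP3, which makes hydroxyalkyl glucosinolates, had 1 count in 1 jazQ library and 0 in the other 8 libraries. BZO1 and SCPL17, which act in the synthesis of benzoyloxy glucosinolates of seeds, had at most 0.20 and 0.25 TPM.

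Among 9 other FMO-like genes of the same clade, 6 could be tested. In jazD against Col-0, 2 rose and 0 fell (median 0.28), in jazQ against Col-0 none was called (edgeR, median -0.16), and in jazD against jazQ 2 rose and 0 fell (median 0.54). With 25.8%, 1.27% and 28.8% of all genes called in these comparisons, the counts are near the background. AT1G12200 rose in jazD against Col-0 (0.49 ± 0.14, adjusted p = 0.0196), with 7.34, 7.06 and 6.39 TPM in jazD and 4.91, 5.65 and 5.03 TPM in Col-0. AT1G62580, which follows FMO GS-OX4 on the chromosome, rose in jazD against Col-0 (1.48 ± 0.50, adjusted p = 0.0466) at low levels, with 0.74, 0.53 and 0.71 TPM in jazD and 0.24, 0.14 and 0.33 TPM in Col-0. AT1G62600 did not pass the test in that comparison (0.23 ± 0.09, adjusted p = 0.0613). In jazQ against Col-0, AT1G63370 (-1.53 ± 0.42, adjusted p = 0.126, edgeR) and AT1G12200 (-0.33 ± 0.15, adjusted p = 0.390) were not called. Ordered by p, they stood at 2.66% and 11.6% of all genes tested. AT1G63370 and AT1G12200 rose in jazD against jazQ, by 1.81 ± 0.41 and 0.82 ± 0.14. The AT1G63370 value is uncertain: it had 2.54 to 7.61 expected counts in jazQ libraries, and its coding sequence is 99.3% identical to that of AT1G62620 over 1353 bases, so reads could be split between them.

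The genes with profiles most like those of the members were found by the root mean square difference of log2 CPM, each gene centred on its own mean, over the 9 libraries. AOP2 had FMO GS-OX3 as its nearest gene of all tested, with a difference of 0.233, and then AT1G32780, annotated as a zinc-binding dehydrogenase, with 0.27. AT1G32780 was also nearest to FMO GS-OX3, with 0.102, followed by the methyltransferase-like AT3G21950 with 0.16. FMO GS-OX2 was nearest to AT4G14090, a UDP-glycosyltransferase, with 0.176, and to AT5MAT (AT3G29590), an acyltransferase, with 0.189. AT4G14090 changed by 2.25 in jazD against Col-0 and 0.92 in jazQ against Col-0, and AT5MAT by 2.03 and 1.32 in the same order. FMO GS-OX1 was nearest to the kinase gene CIPK1 (AT3G17510) with 0.0678 and AT1G02180 with 0.0731. FMO GS-OX5 was nearest to AT5G38980 with 0.0293 and the sucrose phosphate synthase gene SPS1F (AT5G20280) with 0.0419. These are descriptions of 3 genotypes, and genes with small changes have many close profiles.

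The genes around the members were also called at differing rates in jazD against Col-0. Of the 40 tested genes nearest in locus order, 16 were called around FMO GS-OX1, 10 around FMO GS-OX5 and 11 around AOP2, or 40%, 25% and 27.5%. Around FMO GS-OX2, FMO GS-OX3 and FMO GS-OX4 it was 13 of 38, or 34.2%, with 6 higher and 7 lower. These shares stand beside the 25.8% of all genes. In jazQ against Col-0, 3 of 40 were called around FMO GS-OX1 (7.5%, all higher) and 1 around each other member, beside 1.27% of all genes. The shares in jazD against jazQ were 47.5% around FMO GS-OX1, 42.1% around FMO GS-OX2, FMO GS-OX3 and FMO GS-OX4, 20% around FMO GS-OX5 and 32.5% around AOP2. Over all genes it was 28.8% there. The part of these neighbours in the members' changes was not tested. Some markers of other leaf cell types were called in the same libraries. Over all genes, 25.8% were called in jazD against Col-0 and 1.27% in jazQ against Col-0. Of 4 phloem and vein markers, SULTR2;2 fell in jazD against Col-0 (-0.43 ± 0.14, adjusted p = 0.0468, edgeR). SUC2 (0.005), APL (-0.21) and ATHB8 (-0.07) were not called there. The phloem and vein list summed to 110.6 to 127.5 TPM in jazD, 127.5 to 137.6 TPM in jazQ and 120.95 to 137.8 TPM in Col-0. Of 3 guard cell markers, FAMA rose (0.39 ± 0.10, adjusted p = 0.0089) and KAT1 fell (-0.68 ± 0.12, adjusted p = 0.0012, edgeR) in jazD against Col-0. MYB60 was not called there (-0.25 ± 0.09). In jazQ against Col-0, FAMA also rose (0.49 ± 0.10, adjusted p = 0.0225, edgeR), and KAT1 and MYB60 were not called. The guard cell list summed to 31.5 to 36.2 TPM in jazD, 38.2 to 45.5 TPM in jazQ and 32.6 to 38.8 TPM in Col-0. Of 3 trichome markers, GL2 rose in jazD (0.31 ± 0.11, adjusted p = 0.0490) and in jazQ (0.51 ± 0.10, adjusted p = 0.0304, edgeR) against Col-0. MYB23 (0.35 in jazD and 0.45 in jazQ) and GL1 (-0.08 and 0.40 in the same order) were not called. The trichome list summed to 12.5 to 15.1 TPM in jazD, 16.1 to 17.0 TPM in jazQ and 11.5 to 12.9 TPM in Col-0. Of the leaf markers RCA fell in jazD against Col-0 (-0.50 ± 0.07), and RBCS1A, LHCB1.3 and LHCB4.1 were not called. In jazD against jazQ, with 28.8% of all genes called, APL (-0.36 ± 0.09), KAT1 (-0.71 ± 0.12), MYB60 (-0.26 ± 0.09) and RCA (-0.58 ± 0.07) fell. The other markers of these lists were not called in that comparison. The marker calls were not put through the alternative settings, and the part of these cell types in the members' values was not tested.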

How the data were processed

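The authors deposited 1 table of expected counts per gene and 1 of TPM values, per the file headers, both covering all 9 libraries. RSEM 1.2.25 and the TAIR10 genome are named in the submitters' processing notes. No source used here gives the aligner, the strandedness or the annotation version. Expected counts divide reads among the genes they match. They were rounded, filtered with filterByExpr (minimum count 10, 19405 of 33323 genes left) and scaled with TMM. The test was that of edgeR 4.0.16 (R 4.3.3, robust quasi-likelihood F test, all 9 libraries in 1 fit, no block). This procedure was checked on simulated counts for jazD against Col-0 alone, with 200 changed genes and libraries drawn independently. That check does not cover the calls in jazQ against Col-0. With 200 changed genes it also does not cover data where 5006 genes were called, as in jazD against Col-0. TPM values were used as deposited for levels. Per the labels' protocols the 3 libraries of a genotype are independent pools of plants; total counts were 15370271 to 20730459. The members and the 5 pathway lists of 37 genes were chosen with earlier results of these data known. Named are all members, all regulators and other side-chain genes, from each remaining list the genes ranking 1 to 3 by p in jazD against Col-0 and the top gene of either further comparison, and the 2 nearest profiles of each called member (log2 CPM, prior count 2). Alternatives were DESeq2 1.42.0 (size factors, Wald test), limma 3.58.1 (voom, log2 TPM with pseudocounts 1 and 0.1), no filter or a mean of at least 5 CPM, fits on the libraries of just 2 genotypes, a replicate block, and 9 fits leaving out 1 library. Sequences, positions and neighbours came from TAIR10.1 by locus identifier (32835 identifiers matched), with its own annotation; the tables hold no coordinates.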

Additional observations from a re-analysis of the deposited data

How the results depend on the processing

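Under 18 alternatives, no member's change that passed in any fit turned direction. The number of members called stayed at 3 to 5 for jazD against Col-0 (4 in the fit reported) and 4 to 6 for jazD against jazQ (5). For jazQ against Col-0, 3 members were called, and 1 without a filter on low counts, when the fit held just these groups, and with limma on log2 TPM at either pseudocount. Leaving out 1 library gave 1 to 3, with 1 when replicate 1 or 2 of Col-0 or replicate 2 or 3 of jazQ was missing, and 2 when replicate 3 of Col-0 or any jazD library was. The cause was not tested. FMO GS-OX2 was the member called in all of these. With the replicate number as a block, the number of all genes called in jazQ against Col-0 was 572, against 247 without it, and left-out libraries gave 136 to 367, among them 153 without Col-0 replicate 1, 136 without Col-0 replicate 2 and 163 without jazQ replicate 2. With the block, members called were 4, 3 and 6 for jazD against Col-0, jazQ against Col-0 and jazD against jazQ, where the call gained was FMO GS-OX4 (-0.38). Libraries with the same number had correlations of 0.015 to 0.306 in their deviations from the genotype means, over 0.1 in 6 of 9 pairs, and in 16 of 18 cases a library correlated best with its own number in another genotype, a hint from the data and not from the design. The counts over the chain-elongation and core-structure lists under the alternatives were added after seeing the data. FMO GS-OX2 had the lowest counts of the members in jazQ and Col-0, and FMO GS-OX4 in jazD, which limits their precision.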
